A study of Homo sapiens with 4 samples.

Results

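The genes described are 46 DNA damage checkpoint and repair genes of homologous recombination, end resection, the Fanconi anaemia pathway, junction cutting, checkpoint signalling, end joining and mismatch repair. They were taken by name, with no rule on how they changed, but earlier results of these data were known when they were chosen. All 46 were found in the count table of 60612 genes, and all 46 passed the filter on low counts, which left 17537 genes tested. They were measured by RNAseq in IMR-32 cells, a MYCN-amplified line established from human neuroblastoma, after knockdown of NeuroD1, a proneural transcription factor of the basic helix-loop-helix family. Cells were stably transduced with a doxycycline-inducible short hairpin RNA, scrambled in the 2 shControl libraries and directed at NeuroD1 in the 2 shNeuroD1 libraries, and both groups received doxycycline at 1 µg/mL for 48 h. The labels also call the control cells WT and parental, and they give neither the hairpin used nor whether the libraries of a group came from separate cultures, so p-values here measure the spread between these libraries, which may be technical. The study asked how NeuroD1 sustains proliferation. It reported less DNA replication and an arrest between G1 and S phase after knockdown, in IMR-32 cells among others. Its gene set analysis of IMR-32 RNAseq linked the genes that fell to E2F targets, among other sets.

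Cells repair a broken chromosome in several ways. Where a sister chromatid is at hand, mainly in S and G2 phase, the ends are trimmed to single strands and homologous recombination copies the intact sister; where none is used, the ends are rejoined directly. The Fanconi anaemia pathway unhooks crosslinks between strands, the kinases ATM and ATR sense breaks and stalled forks and relay the signal to CHEK2 and CHEK1, and many recombination genes are known to be transcribed more in dividing cells, where E2F factors bind their promoters. Neuroblastoma cells with amplified MYCN are known for replication stress and for their use of this checkpoint.

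The libraries held between 14665210 and 16482463 counts. NEUROD1 itself had 419 and 414 CPM in shControl and 63.7 and 58.2 CPM in shNeuroD1 (CPM, counts scaled to library size by TMM), which is 14.6% of the shControl mean (log2 fold change -2.77, SE 0.0504, edgeR adjusted p 8.6e-29). The share of mitochondrial counts was 4.37% and 4.59% in the control and 5.39% and 5.51% in the knockdown libraries. Of 8 markers of adrenergic neuroblastoma cells, 4 were lower and 3 higher in shNeuroD1, and their summed level ranged from 1976 to 2001 CPM in shControl and from 1586 to 1615 CPM in shNeuroD1. The count of lower markers was 2 without shNeuroD1 2 and 2 under library size alone. HAND2 was abundant in every library, whereas TH and DBH, enzymes of noradrenaline synthesis, lay at no more than 5.78 CPM in any library. Of 8 markers of mesenchymal cells, 6 were tested, 3 were lower and 3 higher, and the summed level ranged from 334 to 342 CPM in shControl and from 618 to 624 CPM in shNeuroD1. VIM, an intermediate filament gene, made up most of that sum, at 243 and 239 CPM in shControl and 549 and 544 CPM in shNeuroD1. Without VIM, a sum chosen after its values were seen, the markers came to 90.2 and 103 CPM in shControl and 74.5 and 74.5 CPM in shNeuroD1. CD44 and COL3A1 were also higher, and YAP1 (-1.50), COL1A1 (-0.94) and FN1 (-0.30) were lower on the log2 scale. PRRX1, a defining mesenchymal factor, had 0 counts in every library. The part of these markers in the results below was not tested, and in bulk RNA fewer cells in a given state cannot be told apart from less RNA per cell.

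The promoters of the genes held a feature that their selection did not use. Promoter windows, from 250 bases before to 50 bases after the annotated start, were found in RefSeq (GRCh38.p14) for 40 of the 46 genes, in 62 windows. The E2F core (TTCCCGC or else TTGGCGC or else TTCGCGC, on either strand) was present in 29 of 62 windows, or 46.8%, against 11.0% of all 35116 windows in the table. Counted by gene, 23 of 40 repair and checkpoint genes had a match, or 57.5%, against 13.1% of all 27305 genes and 20.8% of 11765 other genes that were expressed here and tested. Matches also lay close to the start. Of 33 matches, some of them the same site seen in overlapping windows, 21 began within 50 bases of it. Such a match was in 32.3% of the windows against 3.92% of all windows. Among windows with any match, 69.0% had it within 50 bases, against 35.5% of all windows with a match.

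The promoters of BLM, BARD1, BRIP1 and POLQ are shown because these genes were among those that fell most in their groups and each carries the E2F core, in capitals, at or just after the start, which lies at base 251 of each run. FANCF is shown as a gene with a match at the start whose level did not change, and ATR as one without a match.
BLM (chr15:90717096-90717395, plus strand): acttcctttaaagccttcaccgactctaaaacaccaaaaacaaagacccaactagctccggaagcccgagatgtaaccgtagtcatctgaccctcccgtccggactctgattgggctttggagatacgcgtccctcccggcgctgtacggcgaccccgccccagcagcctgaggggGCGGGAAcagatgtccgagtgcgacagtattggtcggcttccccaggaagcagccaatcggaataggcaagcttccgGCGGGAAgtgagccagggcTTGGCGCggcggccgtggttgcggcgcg
BARD1 (chr2:214809634-214809933, minus strand): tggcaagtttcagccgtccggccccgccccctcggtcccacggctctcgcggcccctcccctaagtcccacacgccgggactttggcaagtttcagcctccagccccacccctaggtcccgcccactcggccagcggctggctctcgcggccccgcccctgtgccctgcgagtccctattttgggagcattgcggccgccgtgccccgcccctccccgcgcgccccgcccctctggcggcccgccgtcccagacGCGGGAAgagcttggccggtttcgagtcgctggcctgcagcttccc
BRIP1 (chr17:61863479-61863778, minus strand): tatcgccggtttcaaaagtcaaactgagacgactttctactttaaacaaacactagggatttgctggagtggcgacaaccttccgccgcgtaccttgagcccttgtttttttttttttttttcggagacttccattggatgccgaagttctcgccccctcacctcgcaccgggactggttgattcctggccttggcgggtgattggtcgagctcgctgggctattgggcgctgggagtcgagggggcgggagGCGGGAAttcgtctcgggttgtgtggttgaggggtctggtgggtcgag
POLQ (chr3:121545939-121546238, minus strand): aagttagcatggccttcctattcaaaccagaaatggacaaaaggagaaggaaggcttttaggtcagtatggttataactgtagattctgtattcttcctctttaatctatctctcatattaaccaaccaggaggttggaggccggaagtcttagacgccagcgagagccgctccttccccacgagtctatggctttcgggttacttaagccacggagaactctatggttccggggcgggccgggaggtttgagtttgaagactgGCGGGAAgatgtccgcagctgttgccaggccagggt
FANCF (chr11:22625774-22626073, minus strand): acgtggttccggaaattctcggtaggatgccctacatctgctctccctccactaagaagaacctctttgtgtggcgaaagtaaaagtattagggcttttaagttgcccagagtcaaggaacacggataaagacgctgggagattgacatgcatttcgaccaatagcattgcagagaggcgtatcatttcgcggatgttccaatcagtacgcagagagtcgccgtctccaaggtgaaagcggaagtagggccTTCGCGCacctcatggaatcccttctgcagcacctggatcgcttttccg
ATR (chr3:142578684-142578983, minus strand): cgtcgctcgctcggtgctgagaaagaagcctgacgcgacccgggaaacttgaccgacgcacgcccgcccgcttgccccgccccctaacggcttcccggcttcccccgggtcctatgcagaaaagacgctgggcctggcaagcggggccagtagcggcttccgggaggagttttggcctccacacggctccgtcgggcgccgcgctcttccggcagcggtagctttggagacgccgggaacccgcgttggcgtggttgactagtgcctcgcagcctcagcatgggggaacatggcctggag

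In these windows the first base of the match lay 4 bases after the start base in BARD1, 2 in BRIP1, 14 in POLQ and 1 in FANCF. BLM held 3 matches, beginning 74 bases before the start base and 3 and 22 bases after it. A match is a run of letters and was not tested as a binding site.

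The motif was then set beside the change in expression, which is described gene by gene further on. Of the 30 matched genes that were lower in shNeuroD1, 20 carried the E2F core, as did 11 of 12 with a log2 fold change under -1 and 3 of the 10 that were not lower. BRCA2 was the gene of those 12 without a match. The median log2 fold change was -0.84 for genes with the E2F core and -0.31 for genes without. Among other tested genes the share with a match was 26.1% of 3781 lower genes, 19.3% of 4788 that were not called and 16.9% of 3196 higher genes. It was 25.1% of the 581 other genes with a log2 fold change under -1, no more than among all the lower ones.

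**Figure D1:**
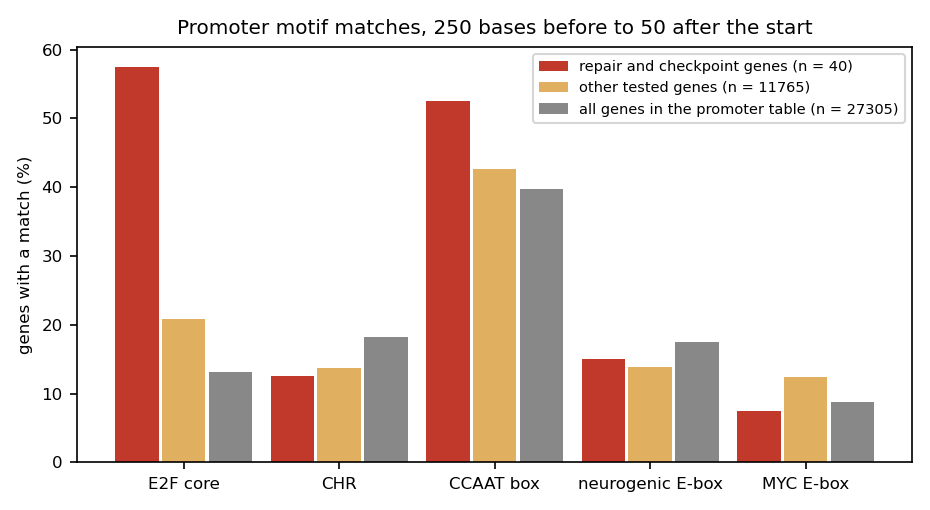
Share of genes (%) with at least 1 match to each motif in the promoter window, for 40 repair and checkpoint genes (red), 11765 other tested genes (yellow) and all 27305 genes of the promoter table (grey). The E2F core stands at 57.5% in the repair and checkpoint genes against 20.8% and 13.1%, while CCAAT stands at 52.5% against 42.7% and 39.7% and the remaining 3 motifs lie at or below 15.0% in the repair and checkpoint genes.

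The remaining motifs were closer to the background. CCAAT, the letters bound by NF-Y, was in 43.5% of the 62 windows against 34.6% of all windows. TTTGAA, the cell cycle homology region, was in 8.06% against 15.2%, and CACGTG, the E-box of MYC proteins, in 4.84% against 7.26%. CAGATG, an E-box bound by neurogenic factors such as NeuroD1, was in 7 of 62 windows, or 11.3%, against 14.7%. BLM held it in both orientations, 167 and 67 bases before the start base, and the second of these directly follows the first E2F core match. By gene, CAGATG was in 15.0% against 13.9% of the other tested genes, TTTGAA in 12.5% against 13.8% and CACGTG in 7.5% against 12.4%. No binding data were analysed here, so these letters say nothing of where NeuroD1 was bound.

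**Figure D2:**
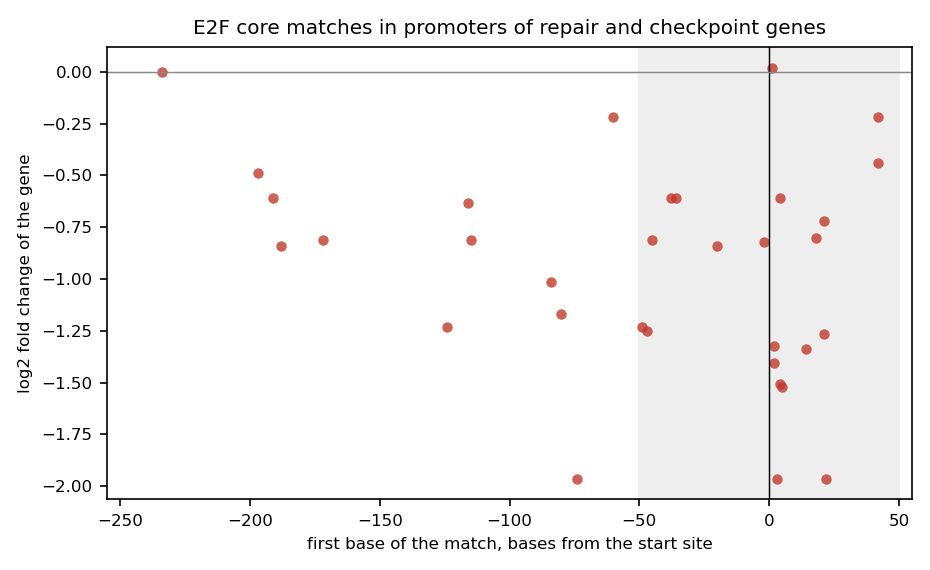
Each point is 1 of the 33 E2F core matches in the windows of repair and checkpoint genes, by the distance of its first base from the start site (bases, grey band within 50 bases) and the log2 fold change of its gene in shNeuroD1 over shControl. 21 of 33 matches lie in the band; windows of 1 gene with several starts can show the same match more than once.

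NeuroD1 knockdown was accompanied by lower levels of most of these genes. Of 46, 36 were lower in shNeuroD1 (78.3%), 3 were higher (6.52%) and 7 were not called by edgeR's quasi-likelihood test (Benjamini-Hochberg adjusted p under 0.05). Across all genes tested the same rule called 28.2% lower and 26.8% higher, or 20.8% and 34.9% under library size alone, which shifts the all-gene median to 0.12. Beyond a log2 fold change of 1 in size, 13 genes were lower and 0 higher, against backgrounds of 5.14% and 8.79%. The count of genes higher beyond 1 was also 0 at an unadjusted p under 0.05 and in DESeq2, the highest log2 fold change being 0.40. The median log2 fold change was -0.72, against 0.01 over all genes. Leaving out EXO1, BLM and BRIP1, which also stand in a widely used S phase list, gave 33 of 43 lower and a median of -0.67.

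The direction was visible library by library. Both shNeuroD1 libraries lay below both shControl libraries in 37 of 46 genes, where the background is 37.7%, and above them in 4, where it is 38.4%. The summed level of the 46 genes was 5239 and 5297 CPM in shControl and 3456 and 3440 CPM in shNeuroD1. In 29 genes the shNeuroD1 mean was under 70% of the shControl mean, and in 13 it was under 50%. The share of all genes tested under these limits was not computed.

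**Figure D3:**
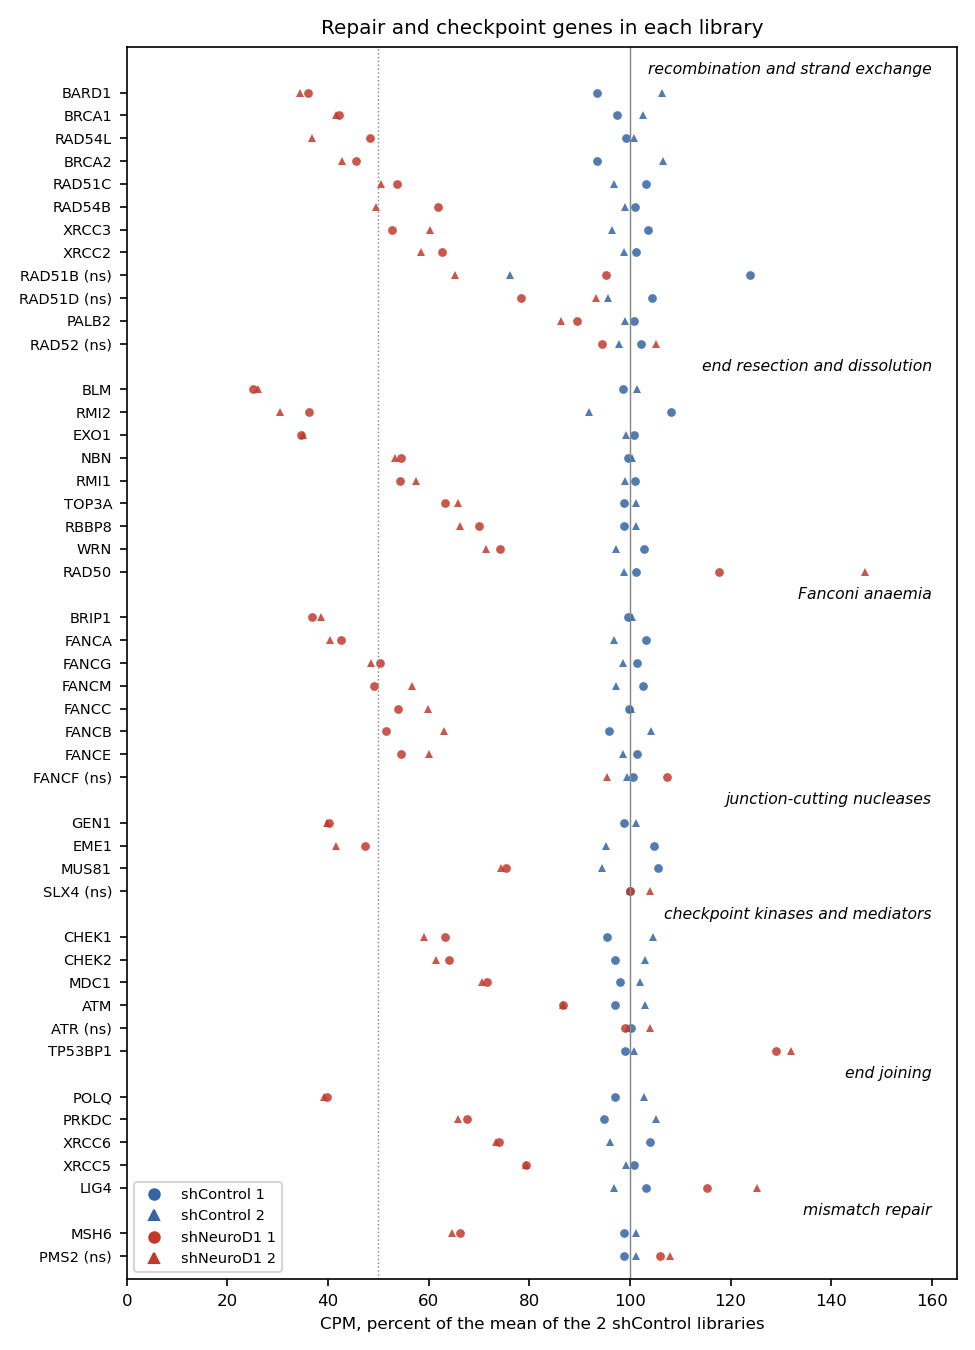
CPM of each of the 46 genes in each library, as a percent of the mean of the 2 shControl libraries (blue, shControl; red, shNeuroD1; circle and triangle, replicates 1 and 2), by role and ordered by fold change; ns marks the 7 genes that were not called. BLM stands lowest, at 25.6% of control, and RAD50, TP53BP1 and LIG4 lie to the right of their shControl libraries.

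Homologous recombination and strand exchange showed a graded fall. Of its 12 genes, 9 were lower and 0 higher, against 28.2% and 26.8% of all genes tested. All 12 had a negative log2 fold change, and the median was -0.83. In this group, the Fanconi anaemia genes and the nucleases, the count of higher genes was 0 in edgeR also at an unadjusted p under 0.05, and 0 in DESeq2. Groups this small could hold few or no higher genes even at the share of 26.8%, so these counts say little of any single group. BARD1 (ENSG00000138376, chromosome 2, 214725646 to 214809711, minus strand, GRCh38), the partner that forms a ubiquitin ligase with BRCA1, had 28.5 and 32.4 CPM in shControl and 11.0 and 10.5 CPM in shNeuroD1 (log2 fold change -1.50, SE 0.106, edgeR adjusted p 1.1e-13). BRCA1 (ENSG00000012048, chromosome 17, 43044295 to 43170245, minus strand), which promotes resection and recruits the recombination machinery, had 252 and 266 CPM in shControl and 109 and 108 CPM in shNeuroD1 (log2 fold change -1.25, SE 0.0471, edgeR adjusted p 1.0e-20). In both genes the groups were far apart, with shNeuroD1 at 35.3% and 42.0% of control. Their log2 fold changes differed by 0.25 with a combined SE of 0.116.

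RAD54L, a motor protein that remodels DNA during strand exchange, had 17.3 and 17.6 CPM in shControl and 8.41 and 6.44 CPM in shNeuroD1 (log2 fold change -1.23, SE 0.137, edgeR adjusted p 3.4e-09), although 25.1% of its exon bases overlap LRRC41 on the opposite strand and use of strand in counting was not stated. BRCA2, a central factor of homologous recombination, went from 65.8 and 74.9 to 32.1 and 30.1 CPM (log2 fold change -1.18). PALB2, the protein that bridges BRCA1 and BRCA2, had 34.9 and 34.3 CPM in shControl and 31.0 and 29.8 CPM in shNeuroD1 and a log2 fold change of only -0.19 (edgeR adjusted p 0.0458). The groups of PALB2 did not overlap, but its call was lost without any 1 of the 4 libraries. The difference between BRCA2 and PALB2 was -0.99 with a combined SE of 0.107, taken from the same libraries and not tested further.

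The paralogs RAD51B, RAD51C, RAD51D, XRCC2 and XRCC3, which assist homologous recombination, did not move alike. RAD51C (-0.94), XRCC3 (-0.82) and XRCC2 (-0.72) were lower. RAD51C had 89.4 and 83.9 CPM in shControl and 46.5 and 43.8 CPM in shNeuroD1. RAD51D had 23.8 and 21.8 CPM in shControl and 17.9 and 21.3 CPM in shNeuroD1 and RAD51B had 4.61 and 2.83 CPM in shControl and 3.55 and 2.43 CPM in shNeuroD1; neither passed (edgeR adjusted p 0.0700 and 0.334), and RAD51B had between 37 and 68 counts a library, the lowest of the set. XRCC3 shares 76.7% of its exon bases with KLC1 on the opposite strand, so reads of both could be mixed. RAD54B, a relative of RAD54L, was also lower (-0.84), with 59.1% of its exon bases shared with FSBP on the same strand. RAD52, an annealing protein, had 21.0 and 20.2 CPM in shControl and 19.5 and 21.7 CPM in shNeuroD1, and its groups overlapped.

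End resection and the dissolution of joined DNA molecules held the deepest falls. Of 9 genes, 8 were lower and 1 higher, against 28.2% and 26.8% of all genes tested, and the median log2 fold change was -0.84. BLM (ENSG00000197299, chromosome 15, 90717327 to 90816165, plus strand), the helicase mutated in Bloom syndrome, had 133 and 136 CPM in shControl and 33.9 and 35.1 CPM in shNeuroD1 (log2 fold change -1.96, SE 0.0591, edgeR adjusted p 3.0e-23). Both shNeuroD1 libraries stood at about the same level, 25.6% of control on average. RMI2, a subunit of the BLM complex, had 35.7 and 30.3 CPM in shControl and 12.0 and 10.05 CPM in shNeuroD1 (log2 fold change -1.58, SE 0.109, edgeR adjusted p 6.7e-14). EXO1, the exonuclease that extends resection, had 135 and 133 CPM in shControl and 46.3 and 46.9 CPM in shNeuroD1 (log2 fold change -1.52, SE 0.0557, edgeR adjusted p 5.4e-21).

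BLM works in a complex with TOP3A, RMI1 and RMI2 that separates joined molecules without crossing over, and its subunits fell by unequal amounts. TOP3A, the topoisomerase, had 108 and 111 CPM in shControl and 69.1 and 72.0 CPM in shNeuroD1 (log2 fold change -0.63). RMI1 had 72.4 and 70.9 CPM in shControl and 38.8 and 41.2 CPM in shNeuroD1 (log2 fold change -0.84). BLM fell by 1.33 more than TOP3A (combined SE 0.0801) and by 1.12 more than RMI1 (combined SE 0.0872) on the log2 scale, and RMI2 by 0.74 more than RMI1 (combined SE 0.127). WRN, the related helicase of Werner syndrome, was lower by less (-0.46).

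Among the factors that start resection, NBN and RAD50 are partners in a break-sensing complex and RBBP8 activates its nuclease. NBN had 135 and 136 CPM in shControl and 73.9 and 72.2 CPM in shNeuroD1 (log2 fold change -0.89, edgeR adjusted p 8.4e-16), and RBBP8 was at -0.55. RAD50 was higher, with 14.6 and 14.2 CPM in shControl and 17.0 and 21.1 CPM in shNeuroD1 (log2 fold change 0.40, SE 0.116, edgeR adjusted p 0.00394). This rise was uncertain, as 79.7% of its exon bases are shared with a same-strand gene model that was counted at 0 in every library, its call was lost without shControl 1, shControl 2 or shNeuroD1 2, and its FPKM (fragments scaled for length and library size, summed over its transcript starts) overlapped between groups, at 22.2 and 19.0 in the control against 16.0 and 22.8 in the knockdown libraries.

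The Fanconi anaemia genes were lower in 7 of 8 cases and 0 were higher, against 28.2% and 26.8% of all genes tested. Their median log2 fold change was -0.86. BRIP1 (ENSG00000136492, chromosome 17, 61681266 to 61863521, minus strand), a helicase that binds BRCA1, had 271 and 273 CPM in shControl and 100.4 and 105 CPM in shNeuroD1 (log2 fold change -1.41, SE 0.0467, edgeR adjusted p 4.4e-22). FANCA, a core complex subunit, had 43.4 and 40.7 CPM in shControl and 17.9 and 17.0 CPM in shNeuroD1 (log2 fold change -1.27, SE 0.0860, edgeR adjusted p 4.3e-14). FANCG, its partner in the same complex, had 48.0 and 46.7 CPM in shControl and 23.8 and 23.0 CPM in shNeuroD1 (log2 fold change -1.02, SE 0.0776, edgeR adjusted p 7.3e-13). Groups were well apart in each, and 23.6% of the exon bases of FANCA overlap ZNF276 on the opposite strand, a gene with 162 to 229 counts a library.

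Most of the other core subunits fell by similar amounts. FANCM, the anchor of the core complex on DNA, was at -0.92, FANCC at -0.81, FANCB at -0.80 and FANCE at -0.80 as log2 fold changes. FANCF, the adaptor subunit of that complex, was the exception, with 35.1 and 34.7 CPM in shControl and 37.5 and 33.3 CPM in shNeuroD1 (log2 fold change 0.02, SE 0.0786, edgeR adjusted p 0.846). Its shNeuroD1 libraries lay on either side of both shControl libraries, and its promoter is among those shown with an E2F core at the start.

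Nucleases that cut joined molecules divided by subunit. Of 4 genes, 3 were lower and 0 higher, against 28.2% and 26.8% of all genes tested, and the median log2 fold change was -0.79. GEN1, which cuts Holliday junctions, had 185 and 189 CPM in shControl and 75.2 and 74.4 CPM in shNeuroD1 (log2 fold change -1.32, SE 0.0498, edgeR adjusted p 1.1e-20). EME1, the regulatory partner of MUS81, had 65.6 and 59.6 CPM in shControl and 29.6 and 26.01 CPM in shNeuroD1 (log2 fold change -1.17, SE 0.0758, edgeR adjusted p 1.3e-14). MUS81, the catalytic subunit, had 25.8 and 23.1 CPM in shControl and 18.5 and 18.2 CPM in shNeuroD1 (log2 fold change -0.42, SE 0.0980, edgeR adjusted p 5.8e-04). EME1 fell further than the subunit it binds, by 0.75 on the log2 scale (combined SE 0.124), with 16.4% of EME1 exon bases and 13.9% of MUS81 exon bases overlapping other genes on the opposite strand. SLX4, a scaffold that docks MUS81 with EME1, had 22.5 and 22.5 CPM in shControl and 22.5 and 23.4 CPM in shNeuroD1 (log2 fold change 0.03, SE 0.0927, edgeR adjusted p 0.812).

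Checkpoint signalling showed small falls, and its ATR branch split between kinase and target. Of 6 genes, 4 were lower and 1 was higher, against 28.2% and 26.8% of all genes tested. None was beyond a log2 fold change of 1, and the median was -0.35. CHEK1 (ENSG00000149554, chromosome 11, 125625136 to 125676255, plus strand), the effector kinase of ATR, had 76.5 and 83.8 CPM in shControl and 50.7 and 47.3 CPM in shNeuroD1 (log2 fold change -0.71, SE 0.0633, edgeR adjusted p 2.7e-11). ATR, the upstream kinase, had 64.0 and 63.6 CPM in shControl and 63.1 and 66.3 CPM in shNeuroD1 (log2 fold change 0.02, SE 0.0597, edgeR adjusted p 0.790), and its groups overlapped. The difference between CHEK1 and ATR was -0.73 with a combined SE of 0.0871.

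CHEK2, the effector of ATM, had 31.5 and 33.4 CPM in shControl and 20.8 and 19.96 CPM in shNeuroD1 (log2 fold change -0.67, SE 0.0878, edgeR adjusted p 8.5e-08), with near-identical pseudogene copies that make its own share of reads uncertain. ATM changed less, from 172 and 182 to 153 and 153 CPM (log2 fold change -0.21), and it no longer passed under library size alone (edgeR adjusted p 0.0883). MDC1, a mediator that holds ATM at breaks, had 120.4 and 125 CPM in shControl and 88.0 and 86.8 CPM in shNeuroD1 (log2 fold change -0.49, SE 0.0515, edgeR adjusted p 1.0e-09).

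TP53BP1, which restrains resection and favours end joining, went the other way. It had 195 and 198 CPM in shControl and 253 and 259 CPM in shNeuroD1 (log2 fold change 0.38, SE 0.0436, edgeR adjusted p 5.1e-09), so the shNeuroD1 mean was 131% of control. The call held without any 1 library and in DESeq2. Of its exon bases, 28.7% overlap TUBGCP4 on the opposite strand, a gene with control counts of 1176 and 1167 and knockdown counts of 943 and 959, and its summed FPKM overlapped between groups (8.71 and 9.47 against 18.6 and 9.20). BRCA1, which opposes it at breaks, differed from TP53BP1 by -1.64 on the log2 scale (combined SE 0.0641).

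End joining held the 3 most abundant genes of the set per length, and its deepest fall was in POLQ. Of 5 genes, 4 were lower and 1 was higher, against 28.2% and 26.8% of all genes tested, and the median log2 fold change was -0.44. POLQ (ENSG00000051341, chromosome 3, 121431427 to 121546641, minus strand), the polymerase of the alternative route that works from short matching ends, had 54.9 and 58.1 CPM in shControl and 22.5 and 22.2 CPM in shNeuroD1 (log2 fold change -1.34, SE 0.0759, edgeR adjusted p 4.4e-16). PRKDC, the catalytic kinase of the classical route, had 683 and 757 CPM in shControl and 488 and 475 CPM in shNeuroD1 (log2 fold change -0.58, SE 0.0438, edgeR adjusted p 5.1e-13). XRCC6, a subunit of the Ku ring that caps ends, had 541 and 499 CPM in shControl and 385 and 381 CPM in shNeuroD1 (log2 fold change -0.44, SE 0.0427, edgeR adjusted p 1.8e-10). The Ku partner XRCC5 was at -0.33, and the subunits differed by 0.11 with a combined SE of 0.0582.

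LIG4, the ligase that seals ends in the classical route, was higher, with 27.5 and 25.8 CPM in shControl and 30.8 and 33.4 CPM in shNeuroD1 (log2 fold change 0.27, SE 0.0842, edgeR adjusted p 0.00771). Its groups did not overlap, but the call was lost in DESeq2 (adjusted p 0.175), without a filter on low counts (0.0558), and without shControl 1, shControl 2 or shNeuroD1 2. POLQ of the alternative route and LIG4 of the classical route differed by -1.61 (combined SE 0.113).

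Only 2 mismatch repair genes were in the set, and they differed. MSH6 (ENSG00000116062, chromosome 2, 47695530 to 47810101, plus strand), a mismatch-binding subunit, had 305 and 312 CPM in shControl and 205 and 199.5 CPM in shNeuroD1 (log2 fold change -0.61, SE 0.0432, edgeR adjusted p 1.1e-13). PMS2, a mismatch repair endonuclease, had 53.1 and 54.3 CPM in shControl and 56.9 and 57.99 CPM in shNeuroD1, values that did not overlap but did not pass (log2 fold change 0.10, SE 0.0626, edgeR adjusted p 0.193). Reads of PMS2 can be shared with near-identical pseudogene copies, and under library size alone it passed at 0.21 (edgeR adjusted p 0.0052).

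Levels were compared between genes per kilobase of exon. XRCC6 stood highest in shControl, at 158 CPM per kb, followed by XRCC5 (106), PRKDC (46.7), BRIP1 (34.1), EXO1 (32.3) and BRCA1 (28.2). In shNeuroD1 the first 3 kept 117, 83.9 and 31.2 CPM per kb, whereas BRIP1, EXO1 and BRCA1 were at 12.9, 11.3 and 11.8. RAD51B was lowest in shControl, at 0.498 CPM per kb. Genes that fell below 50% of control were found from 34.1 CPM per kb (BRIP1) to 4.32 CPM per kb (FANCA) in shControl.

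**Figure D4:**
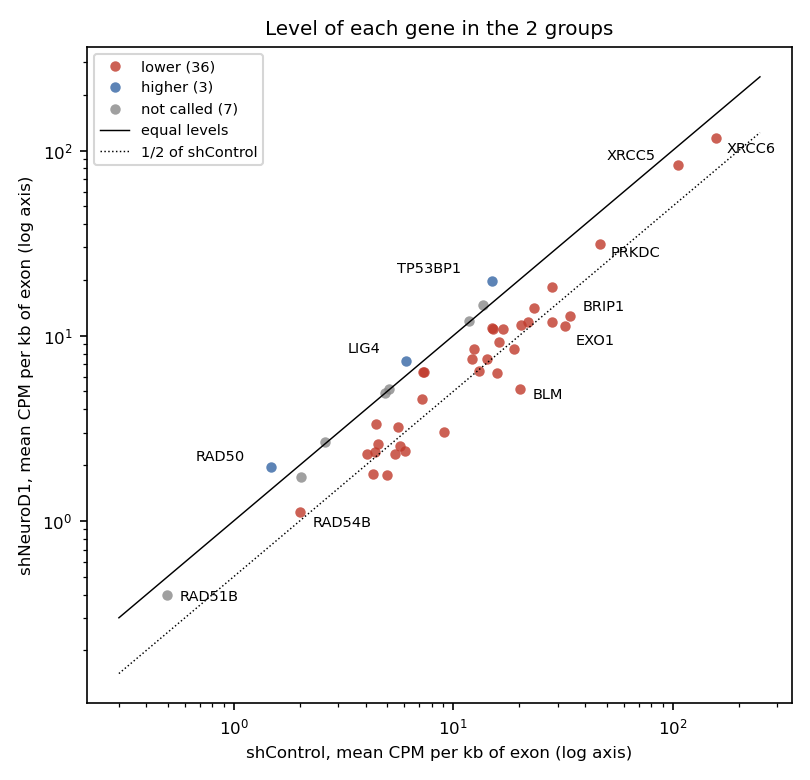
Mean CPM per kb of exon of each of the 46 genes in shControl (x axis, log scale) and shNeuroD1 (y axis, log scale), each mean over 2 libraries; red, lower; blue, higher; grey, not called; solid line, equal levels; dotted line, 50% of shControl. The 13 deepest falls lie on or under the dotted line, and XRCC6, XRCC5 and PRKDC at the upper right lie between the lines.

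Other genes of these pathways were counted from a list of 54 partners, of which 52 were tested. Of these, 35 were lower (67.3%, against 28.2% of all genes tested) and 3 were higher (5.77%, against 26.8%). Their median log2 fold change was -0.39. CLSPN, the adaptor that lets ATR activate CHEK1, had 62.3 and 57.6 CPM in shControl and 17.7 and 19.4 CPM in shNeuroD1 (log2 fold change -1.69, SE 0.0800, edgeR adjusted p 4.1e-18). RECQL, a helicase, had 85.4 and 85.1 CPM in shControl and 32.8 and 29.8 CPM in shNeuroD1 (log2 fold change -1.45), and BRCC3, a deubiquitinase of a BRCA1 complex, had 32.5 and 30.0 CPM in shControl and 12.6 and 13.2 CPM in shNeuroD1 (log2 fold change -1.27). USP1, which removes ubiquitin from the Fanconi anaemia pathway and is the gene the study followed as a target of NeuroD1, was at 41.6% of control (log2 fold change -1.27). The 3 that rose were BABAM2 (0.31), RECQL5 (0.28) and FAN1 (0.27).

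Base and nucleotide excision repair, which mends damaged bases and bulky lesions throughout the cell cycle, was close to the background. Of 40 genes, 14 were lower (35.0%), 8 were higher (20%) and the median log2 fold change was -0.03. Under library size alone, which shifts all genes by that 0.12, 7 were lower, 15 were higher and the median turned to 0.08. Without shControl 1, 8 were lower and 5 higher, and without shNeuroD1 1, 11 were lower and 5 higher. The largest falls were in the glycosylases NEIL3 (-1.09), UNG (-0.99) and TDG (-0.80). UNG, which removes uracil from DNA, had 189 and 175 CPM in shControl and 93.2 and 89.2 CPM in shNeuroD1 (log2 fold change -0.99, SE 0.0513, edgeR adjusted p 4.1e-17). The largest rises were in NEIL1 (0.87), another glycosylase, UVSSA (0.65) and GTF2H5 (0.40), both of nucleotide excision repair.

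Genes that p53 induces after damage moved in both directions. Of 24, 8 were lower (33.3%, against 28.2% of all genes tested) and 10 were higher (41.7%, against 26.8%). Their median log2 fold change was 0.06. Without shControl 1, and again without shControl 2, 5 were lower and 6 higher. GADD45A (-1.11), FAS (-0.89) and SESN2 (-0.79) fell most, and BBC3 (1.11), SPATA18 (1.06) and TIGAR (0.88) rose most, with FAS and TIGAR under 3 CPM in every library. CDKN1A, the p21 cell cycle inhibitor and the best known of these targets, had 64.3 and 63.8 CPM in shControl and 59.1 and 65.5 CPM in shNeuroD1 (log2 fold change -0.04, SE 0.0623, edgeR adjusted p 0.611).

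S phase genes outside the set fell together and by more. Their median log2 fold change was -1.19, and all 38 were lower, against 28.2% of all genes tested. Of the 38, 27 were lower beyond 1 (71.1%, against 5.14%). UHRF1 (-1.85), CDC6 (-1.83) and CLSPN (-1.69) fell most, and 4 of the 38, CLSPN, RAD51AP1, TIPIN and USP1, were counted in the list of partners as well, as was UNG in that of excision repair. The summed level of the 38 genes was 5171 and 5089 CPM in shControl and 2230 and 2234 CPM in shNeuroD1. Their part in the fall of the repair genes was not tested.

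**Figure D5:**
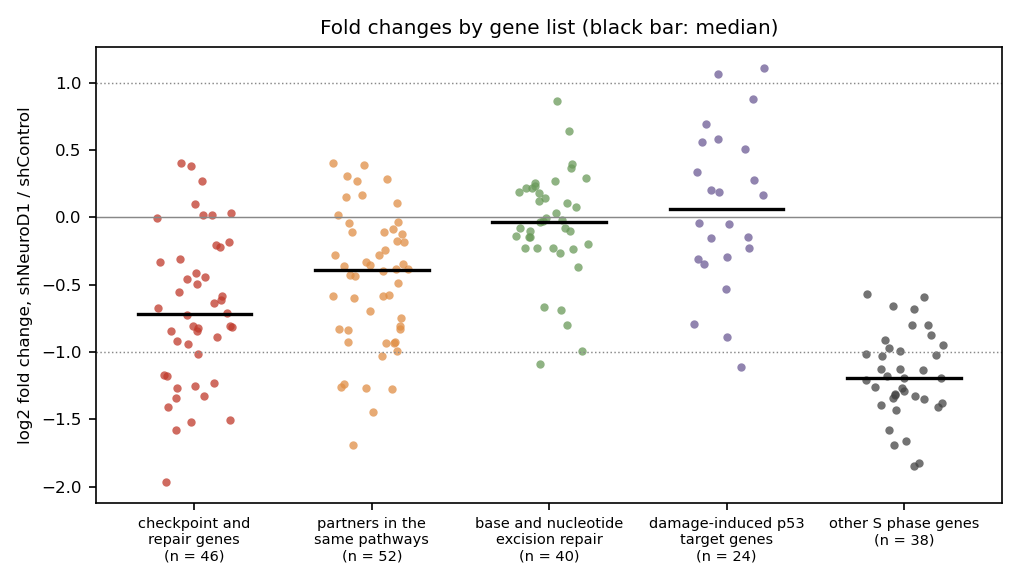
log2 fold change (shNeuroD1 over shControl) of each tested gene in 5 lists, 1 point a gene, with the median as a black bar and dotted lines at -1 and 1. The 46 checkpoint and repair genes (median -0.72) lie between the excision repair genes (-0.03) and the other S phase genes (-1.19).

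The FPKM tables gave a coarser view of the same libraries. They held 41 of the 46 genes, and BRCA1, RAD51D, RAD52, FANCF and POLQ had no rows of their own in them. Both shNeuroD1 libraries lay below both shControl libraries in 27 of 41 genes, where the background over the 13215 genes of these tables is 25.0%, and above them in 3 (ATR, LIG4 and PMS2), where it is 27.8%. Limma on log2(FPKM + 1) called 4 of 40 genes lower (BARD1, FANCC, GEN1 and RMI2), 3 of them beyond 1, and 0 higher, against 2.43%, 2.0% and 2.42% of all 10083 genes tested there. On log2(FPKM + 0.1) it called 1 of 40 lower (BARD1), also beyond 1, and 0 higher, against 1.19%, 1.19% and 1.18%. PMS2 alone of the 40 was higher at an unadjusted p under 0.05, in both fits. The shControl libraries differed from each other by a median of 0.19 on the log2(FPKM + 1) scale, against 0.04 on the log2 CPM scale. BARD1 had 3.31 and 4.03 FPKM in shControl and 1.18 and 1.11 in shNeuroD1. EXO1, the third deepest fall in the counts, had 4.04 and 5.12 FPKM in shControl and 9.62 and 3.62 in shNeuroD1, so its groups overlapped there.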

How the data were processed

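RNAseq of 4 polyA libraries of IMR-32 cells was analysed, 2 a group, with groups and replicate numbers taken from the sample titles. The count table that the authors deposited holds raw counts of 60612 Ensembl genes from HTSeq 0.6.1, and the submitters' processing notes also name cutadapt 1.9.1, HISAT2 2.0.1, DESeq2 and build hg38. Use of strand in counting is not given in the sources used here, so reads of overlapping genes may be mixed. All rows of the count table named a gene. The deposited FPKM tables list transcript starts, ends and splicing events with an FPKM above 0 for each library, and a gene's FPKM was summed over its transcript starts. The deposited fold changes and p-values were not used.

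Counts were compared in edgeR 4.0.16 under R 4.3.3 (filterByExpr minimum count 10, TMM, glmQLFit and glmQLFTest, two-sided, Benjamini-Hochberg adjustment over 17537 genes), with calls at an adjusted p below 0.05. The SE is the size of the log2 fold change divided by the square root of F. CPM are TMM-scaled, and CPM per kb divide by union exon length in GENCODE 29 (GRCh38), which also gave coordinates and overlaps. On simulated counts at this size edgeR recovered 79% of changes of 0.5 and 97% of changes of 1 on the log2 scale. The simulation changed far fewer genes than were called here and took its spread from these libraries. Its rates may therefore not carry over to the data or to separate cultures. Promoter windows came from RefSeq (GRCh38.p14) and were searched with Python 3.11.15. Genes given in full were up to 3 a role with the largest called change, every called rise, and up to 3 falls and 3 rises a list; other genes named were chosen after their values were seen. Alternatives were DESeq2 1.42.0, other scalings and filters, the replicate number as a block, limma 3.58.1 on log2(FPKM + 1) and log2(FPKM + 0.1) where mean FPKM was 1 or more, and leaving out each library. The genes, lists and tests were chosen with earlier results of these data known. With 2 libraries a group, differences between genes were given with a combined SE and no test.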

Additional observations from a re-analysis of the deposited data

How the results depend on the processing

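The 36 lower genes, and the 13 lower beyond a log2 fold change of 1, moved by less than 1.5 times in every count-based setting, with 34 to 36 and 12 to 14, and 35 to 36 and 13 to 14 when 1 library was left out. Limma on FPKM, over 40 of the 46 genes, called 4 lower, 0 higher and 3 lower beyond 1 with a pseudocount of 1, and 1, 0 and 1 with 0.1, against 2.43% and 1.19% of all genes called lower, so that 1 of 40 is near the background. The medians were -0.48 and -0.55; the cause was not tested. The 3 higher genes became 1 (TP53BP1) without a filter on low counts and in DESeq2, 2 without RAD50 (chosen after seeing the data), and 1 to 3 when 1 library was left out, with 1 without shControl 1, shControl 2 or shNeuroD1 2. The median of -0.72 was -0.60 under library size alone, where that of all genes was 0.12, -0.73 without a filter, -0.70 at 1 CPM or more on average, -0.73 in DESeq2, and -0.75 to -0.67 when 1 library was left out. NEUROD1 ranged from -2.84 to -2.71 when 1 library was left out.

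EXO1 turned from -1.52 to 0.33 and 0.37 and XRCC5 from -0.33 to 0.19 and 0.19 in the FPKM fits, with pseudocounts of 1 and 0.1. Smaller values of the other sign were found for RAD51B (0.018 and 0.024 in the FPKM fits), RAD52 (0.11 under library size alone and 0.012 at 1 CPM or more on average), and, when 1 library was left out, for RAD51B (-0.63 to 0.066), RAD52 (-0.081 to 0.072), FANCF (-0.0696 to 0.103) and ATR (-0.016 to 0.054), and in the FPKM fits for XRCC2 (0.046 and 0.051), RAD50 (-0.099 and -0.10) and ATM (0.0027 and 0.0029); the cause was not tested. Excision repair genes were 14 lower and 8 higher in the main setting, 7 and 15 under library size alone and 4 higher in DESeq2. p53 targets were 8 lower and 10 higher, and 5 and 6 in DESeq2. Partners were 3 higher, and 6 under library size alone. The FPKM fits called 3 and 0 partners and 13 and 5 S phase genes lower.

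Deviations from the group means correlated at 0.0158 between same-numbered libraries, which gives no pairing, and the fit with a replicate block called 36 of the genes lower and 3 higher. With 2 libraries a group the depth limits genes such as RAD51B, at 37 to 68 counts.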
